A study of Mus musculus with 4 samples.

Results

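The genes that build and gate the cilium were followed across the sorted cells of the newborn mouse inner ear. They encode the intraflagellar transport (IFT) trains and their return motor, the BBSome with its assembly and recruitment factors, and the transition zone at the base of the cilium. Members were chosen by gene symbol, and 52 of the 12814 genes in the expression table matched. All 52 are protein-coding genes. They were grouped by known role into 12 IFT-B genes, 6 IFT-A genes, 4 subunits of the dynein-2 motor, 7 BBSome subunits, 2 chaperonin-like BBS genes, 3 small GTPases, 11 genes of the MKS module of the transition zone, 6 genes of the NPHP module together with *Rpgr*, and the centriolar gene *Ofd1*.

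Hair cells (HCs) and other epithelial cells (ENSCs in the sample labels) were sorted by flow cytometry from 2 organs, the cochlea, which serves hearing, and the vestibular system, which serves balance. All 4 groups came from newborn *Atoh1/nGFP* transgenic mice on a C57BL/6 background, in which an *Atoh1*-driven nuclear green fluorescent protein marks HCs, and inner ears of several mice were pooled for each preparation. HCs carried the fluorescent protein and the epithelial surface protein CD326, and ENSCs carried CD326 alone, so that the ENSC group holds supporting cells together with any other CD326-positive epithelium. Each group is 1 column of the table, so no value has a replicate error, no test between groups was made, and the differences below are those between these 4 libraries.

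A cilium is assembled and maintained by IFT trains that kinesin-2 carries to the tip and dynein-2 carries back. IFT-B serves mainly the outward journey and IFT-A the return and the entry of membrane proteins, while the BBSome rides on the trains and takes membrane proteins out of the cilium. The transition zone is the gate at the base, and mutations in its genes cause Joubert syndrome, Meckel syndrome and nephronophthisis, whereas mutations in the BBSome cause Bardet-Biedl syndrome. A newborn HC bears a single true cilium, the kinocilium, beside its actin-based stereocilia. It is lost from cochlear HCs as they mature and kept in vestibular HCs. Supporting cells carry a primary cilium.

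Values are quantile-normalized read counts per gene, called signal here, with a floor of 20. The quantile normalization gave every library the same set of values, with a median of 120, so true depth is unknown and a shift of the whole transcriptome cannot be seen. In 3 libraries the lowest values form a tied range, where values follow the level of a gene in the other libraries and so do not rank genes. Its top was 24.25 in cochlear HCs, 22.75 in cochlear ENSCs and 30.5 in vestibular HCs, and in vestibular ENSCs only the floor of 20 was tied. A fold against a tied value is given as a lower bound, computed against the top of the range. Both HC libraries carried the HC markers: the summed signal of 10 marker genes was 37420 in cochlear HCs and 32616 in vestibular HCs, against 1880 and 1467 in the matching ENSC libraries. *Myo6* supplied most of each sum, and the 9 other markers summed to 7500 and 10648 in HCs against 276 and 180.25 in ENSCs.

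Most of the 52 genes had more signal in HCs than in ENSCs. In the cochlea 41 had a ratio above 1 (78.8%, against 47.5% of all genes), and in the vestibular system 47 did (90.4%, against 46.8%). The ratio was above 1 in both organs for 40 genes (76.9%, against 32.0% of all genes) and below 1 in both for 3 (5.77%, against 31.9%). For 39 genes (75.0%) both HC signals lay above both ENSC signals, whereas 25.8% of all genes had this order, and the 3 genes with both HC signals below both ENSC signals (5.77%, against 25.8%) were *Ift46*, *Ift52* and *Ttc21b*. The median log2 ratio of the 52 genes was 0.97 (cochlea) and 1.69 (vestibular system), against 0 and -0.0045 over all genes. These are bulk libraries, in which fewer cells of a type and less RNA per cell cannot be told apart.

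At least 3-fold higher signal in HCs was found for 12 of the 52 genes in the cochlea (23.1%, against 8.39% of all genes) and for 28 in the vestibular system (53.8%, against 13.8%). Both organs passed 3-fold for 9 genes (17.3%, against 4.99%), which were *Ttc21a*, *Dync2h1*, *Bbs1*, *Bbs5*, *Ahi1*, *Tmem231*, *Tmem216*, *Rpgr* and *Cep290*. A difference of at least 3-fold in the other direction was seen for 1 gene in the cochlea, *Ttc21b* (1.92%, against 9.20% of all genes), and for 0 in the vestibular system (background 14.3%). With 100 added to every signal before the ratio, the counts of genes higher in HCs were 5 (9.62%, against 3.07% of all genes) and 18 (34.6%, against 5.24%). Because vestibular ratios followed the GC content of genes, a log2 ratio corrected for length and GC is given as well where the correction moves a named gene, among the 52 or outside them, across 3-fold (1.58 on the log2 scale) between HCs and ENSCs. The plot of the signals by role shows how the 4 libraries fall for each gene.

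**Figure D1:**
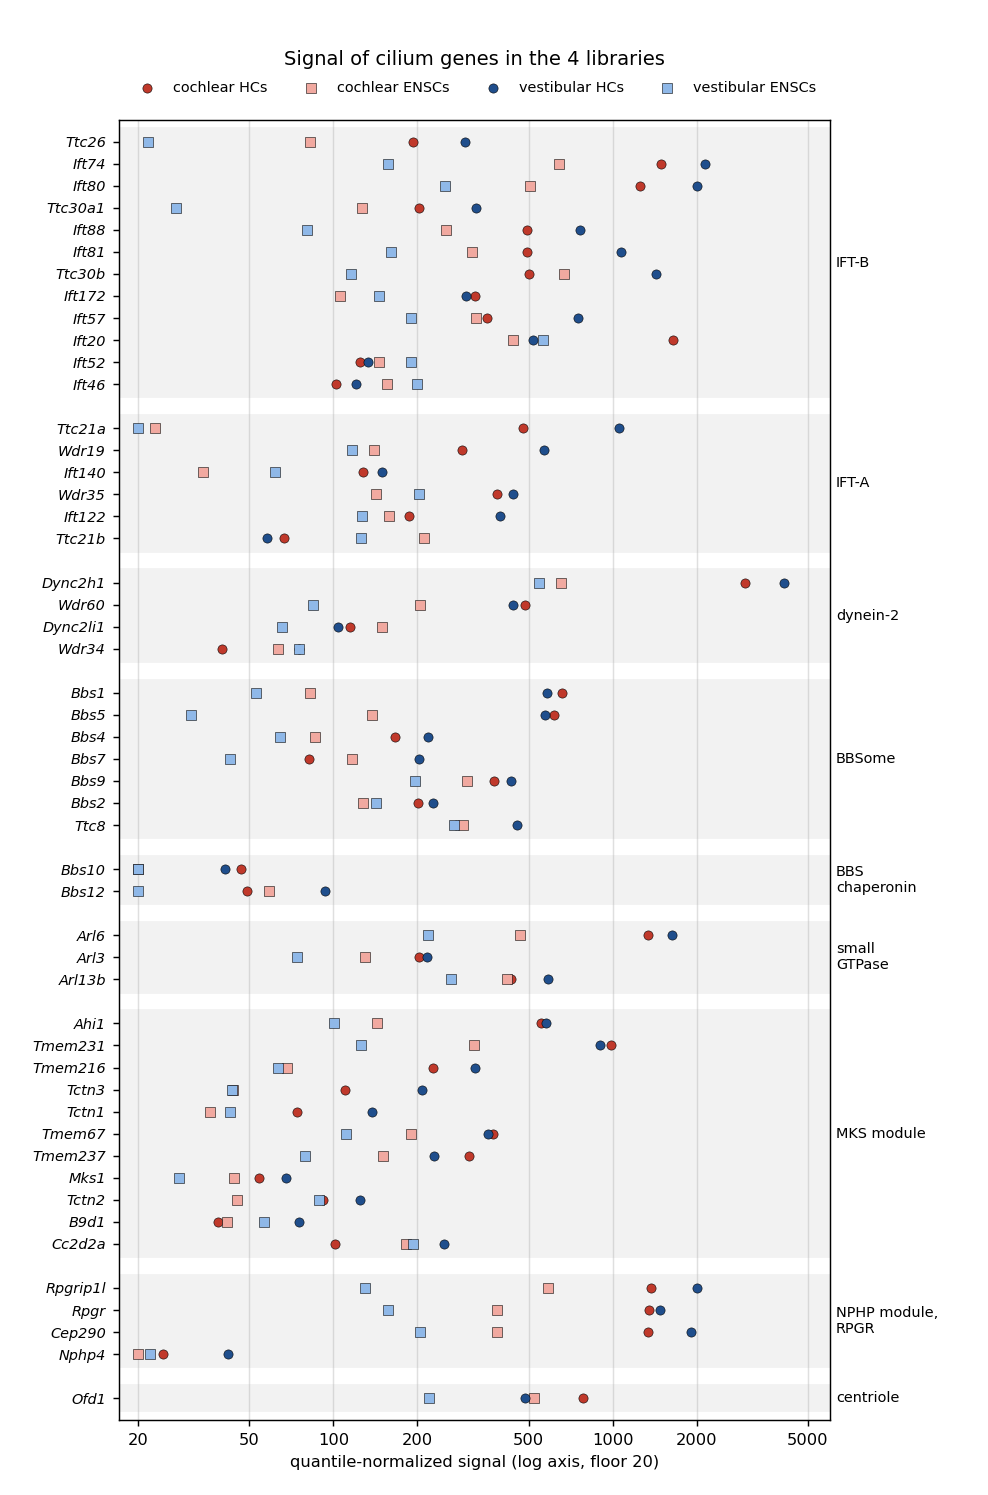
Quantile-normalized signal (log axis, floor 20) of 50 of the 52 genes in cochlear HCs, cochlear ENSCs, vestibular HCs and vestibular ENSCs, 1 library each, grouped by role and ordered within a role by the mean of the HC to ENSC log2 ratios of both organs. The circles of the HCs lie to the right of the squares of the ENSCs for 37 of the genes drawn and to the left for *Ift46*, *Ift52* and *Ttc21b*.

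Signals below are given in the order cochlear HCs, cochlear ENSCs, vestibular HCs and vestibular ENSCs. Positions of genes are those of mm9, and all 52 genes were found in its annotation, whereas positions of promoter sequences are on GRCm38.p6.

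Of the role groups, IFT-B had the widest gap between the medians of the 2 organs. Its median log2 HC to ENSC ratio was 0.82 for the cochlea and 2.87 for the vestibular system. In the cochlea 2 of 12 genes passed 3-fold (background 8.39% of all genes), and in the vestibular system 8 of 12 did (background 13.8%). *Ttc26*, whose product is IFT56, had signals of 193, 82.8, 296 and 21.8, which is 2.34-fold higher in cochlear HCs and 13.6-fold higher in vestibular HCs. *Ift74* and *Ift81*, whose products together bind tubulin, had signals of 1489, 641, 2135 and 156 for *Ift74* and of 495, 314.5, 1073.5 and 161 for *Ift81*. The vestibular ratios of this pair were 13.7-fold and 6.68-fold, and their cochlear ratios 2.32-fold and 1.57-fold. Vestibular ENSCs were the lowest library for all 3 genes.

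*Ift88*, the gene mutated in a classic mouse model of polycystic kidney disease, had signals of 493.5, 252, 761 and 80.5, 9.45-fold higher in vestibular HCs than in vestibular ENSCs. *Ift80* had signals of 1254.5, 506, 2010 and 252 and a vestibular ratio of 7.98-fold. *Ift57* had signals of 354, 324, 751 and 190.25, 3.95-fold higher in vestibular HCs. Cochlear HCs and ENSCs were close for *Ift57*, at 1.09-fold, and further apart for *Ift88* and *Ift80*, at 1.96-fold and 2.48-fold. Each of the 3 genes was highest in vestibular HCs and lowest in vestibular ENSCs.

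The paralogues *Ttc30a1* and *Ttc30b* both encode IFT70, a subunit of the IFT-B core. *Ttc30a1* had signals of 202, 127, 324 and 27.2 and *Ttc30b* had signals of 502.5, 669, 1426.5 and 116. Both were far higher in vestibular HCs than in vestibular ENSCs, by 11.9-fold and 12.3-fold. In the cochlea *Ttc30a1* was 1.59-fold higher in HCs and *Ttc30b* was 1.33-fold higher in ENSCs. Of the 50-nt stretches of these transcripts, 41.5% in *Ttc30a1* and 36.7% in *Ttc30b* also occur in another gene. Whether reads that fit more than 1 gene were dropped or counted is not stated, so the signals of both paralogues are uncertain.

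*Ift20* and *Ift172* departed from this order. *Ift20* (chr11:78349863-78355239), whose product also sits on the Golgi, had signals of 1639, 438.5, 519.5 and 561. It was 3.74-fold higher in HCs in the cochlea, while the 2 vestibular signals were within 1.08-fold of each other. *Ift172*, the largest IFT-B subunit, had signals of 322, 106, 298 and 145, 3.04-fold higher in HCs in the cochlea and 2.05-fold higher in the vestibular system, where the corrected log2 ratio was 1.64. The core subunits *Ift52* and *Ift46* were the IFT-B genes with more signal in ENSCs of both organs. Their signals were 124, 145, 133 and 189.5 for *Ift52* and 102, 156, 120.25 and 199 for *Ift46*, with no ratio above 1.66-fold in either organ. The 12 IFT-B genes spanned log2 ratios from -0.61 to 1.90 in the cochlea and from -0.73 to 3.77 in the vestibular system.

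Within IFT-A, 2 paralogous genes took opposite ends of the whole set. *Ttc21a* (chr9:119846724-119876911) and *Ttc21b* (chr2:66022384-66094674) both encode tetratricopeptide subunits, and *Ttc21b* is the IFT139 gene mutated in human nephronophthisis and skeletal ciliopathies. *Ttc21a* had signals of 479, 23, 1055.5 and 20, 20.8-fold higher in cochlear HCs and at least 52.8-fold higher in vestibular HCs. Its signal in cochlear ENSCs was just above the tied range and that in vestibular ENSCs was at the floor. *Ttc21b* had signals of 66.5, 210.25, 58 and 126, 3.16-fold higher in cochlear ENSCs and 2.17-fold higher in vestibular ENSCs than in HCs, with a corrected vestibular log2 ratio of -1.80. Per kb of exonic sequence, *Ttc21a* had signals of 88.9, 4.27, 196 and 3.71 and *Ttc21b* had signals of 7.14, 22.6, 6.23 and 13.5, so *Ttc21a* was the higher of the pair in both HC libraries and *Ttc21b* in both ENSC libraries.

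The other 4 IFT-A genes were higher in HCs in both organs. *Ift140*, encoding a core subunit, had signals of 128, 34, 149.75 and 61.8, with ratios of 3.76-fold for the cochlea and 2.43-fold for the vestibular system, and a corrected vestibular log2 ratio of 1.68. *Wdr19*, the gene for IFT144, had signals of 289, 140.25, 567 and 117, with a vestibular ratio of 4.85-fold. *Ift122*, a further core subunit, had signals of 186, 157.5, 394 and 126 and ratios of 1.18-fold and 3.12-fold. *Wdr35*, the gene for IFT121, stayed below 3-fold in both organs, at 2.71-fold and 2.16-fold. The medians of the 6 genes were 1.24 and 1.46 on the log2 scale.

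The heavy chain of the return motor, *Dync2h1*, had the highest HC signals of the 52 genes, although it is also the longest. Its signals were 2970.25, 654, 4121.5 and 546, 4.54-fold and 7.55-fold higher in HCs. *Wdr60*, an intermediate chain, had signals of 484, 204, 441 and 84.5 and ratios of 2.37-fold and 5.22-fold. The other intermediate chain, *Wdr34*, had signals of 39.8, 63.5, 75 and 75, which is 1.60-fold lower in cochlear HCs and equal in the 2 vestibular libraries, although its corrected vestibular log2 ratio was 1.08. *Dync2li1*, the light intermediate chain, was 1.30-fold lower in HCs in the cochlea and 1.59-fold higher in the vestibular system. Of the 4 subunits of this motor, *Dync2h1* and *Wdr60* thus had more signal in HCs of both organs, and *Wdr34* and *Dync2li1* had less in cochlear HCs.

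In the BBSome, *Bbs1* and *Bbs5* stood above the other subunits in both organs. *Bbs1*, the subunit that binds the recruiting GTPase ARL6, had signals of 659, 82.8, 582 and 53 with ratios of 7.97-fold and 11.0-fold. *Bbs5*, which binds phosphoinositides, had signals of 616.5, 138, 573 and 31 with ratios of 4.47-fold and 18.5-fold. Cochlear HCs had slightly more signal than vestibular HCs for both genes, by 1.13-fold and 1.08-fold, and both ENSC signals lay far below.

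The remaining BBSome subunits were closer to even in the cochlea. *Bbs4* had signals of 166, 86.2, 218.5 and 64.2 and a vestibular ratio of 3.40-fold. *Bbs7* had signals of 81.8, 116, 203 and 42.5, 1.42-fold lower in HCs in the cochlea and 4.78-fold higher in the vestibular system. *Ttc8*, the gene for BBS8, had the smallest ratios of the complex when averaged over the organs, with signals of 275, 291, 455 and 271. *Bbs2* and *Bbs9* were higher in HCs of both organs, by 1.25- to 2.22-fold. All 7 subunits were above 1 in the vestibular system (against 46.8% of all genes) and 5 of 7 in the cochlea (against 47.5%), with median log2 ratios of 1.77 and 0.66.

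*Bbs10* and *Bbs12* encode chaperonin-like proteins that help the BBSome to assemble, and both were weakly detected. *Bbs10* had signals of 46.8, 20, 40.8 and 20, so both ENSC values were at the floor and the HC signals were at least 2.05-fold and at least 2.04-fold higher. *Bbs12* had signals of 49, 58.8, 93.5 and 20, with more signal in ENSCs in the cochlea and a vestibular ratio of at least 4.67-fold. Their values lie close to the lower end of what the table can rank.

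Of the small GTPases, *Arl6*, which brings the BBSome to membranes and is itself a Bardet-Biedl gene, had signals of 1339, 467.5, 1629.5 and 217.5. Its ratios were 2.86-fold for the cochlea and 7.49-fold for the vestibular system, and its corrected cochlear log2 ratio of 1.60 lay just past 3-fold. *Arl13b*, a Joubert syndrome gene whose product activates ARL3, had signals of 434, 418, 587 and 264, nearly even in the cochlea and 2.23-fold higher in vestibular HCs. *Arl3*, which releases lipid-modified cargo inside the cilium, had ratios of 1.55-fold and 2.91-fold and a corrected vestibular log2 ratio of 2.24. The 3 genes kept the same order of ratios in both organs, with *Arl6* first.

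The MKS module anchors the membrane of the transition zone. Of its genes, 11 of 11 had a vestibular ratio above 1 (against 46.8% of all genes) and 9 of 11 a cochlear one (against 47.5%). *Ahi1*, the gene for jouberin, had signals of 555, 143, 575 and 101 with ratios of 3.88-fold and 5.71-fold. *Tmem231* had signals of 986, 319.5, 899 and 125 with ratios of 3.09-fold and 7.18-fold. *Tmem216* had signals of 227, 68, 320.25 and 63.2 with ratios of 3.34-fold and 5.06-fold. These 3 genes, of which the last pair encode membrane proteins of the gate, were the MKS genes past 3-fold in both organs.

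*Tctn1*, *Tctn3* and *Tmem67* passed 3-fold in the vestibular system only. *Tctn3*, one of the tectonic genes, had signals of 110.25, 43.8, 207 and 43.5 and a vestibular ratio of 4.76-fold. Its paralogue *Tctn1* had signals of 74, 36.2, 138 and 42.5 and a ratio of 3.25-fold, but 20.4% of its exonic sequence lies in *Hvcn1* on the other strand, and the strand setting of the counting is not stated. *Tmem67*, the gene for meckelin, had signals of 373, 190.25, 356.5 and 110.5 and a ratio of 3.23-fold, but its corrected log2 ratio of 1.12 was below 3-fold. The cochlear ratios of these genes were 2.52-fold for *Tctn3*, 2.04-fold for *Tctn1* and 1.96-fold for *Tmem67*, all in the direction of HCs. The exonic sequence of *Tmem67*, *Tmem216* and the IFT-B gene *Ift57* also overlaps genes on the other strand, by 5.42%, 8.55% and 7.86%. *Cc2d2a*, whose product links the gate to the centriole, had the smallest mean ratio of the module, with signals of 101, 181, 249.5 and 193. *Mks1*, *B9d1*, *Tctn2* and *Tmem237* stayed below 3-fold in both organs, and of these *B9d1* was 1.07-fold lower in cochlear HCs. After correction *Mks1* passed 3-fold in the vestibular system, with a log2 ratio of 1.74, and *B9d1* had a cochlear log2 ratio of 0.07.

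*Rpgrip1l*, *Rpgr* and *Cep290*, whose products sit at the gate and are known for retinal and renal ciliopathies, were the leading genes of the NPHP group. *Rpgrip1l* had signals of 1373, 588, 2004.5 and 129, with ratios of 2.34-fold for the cochlea and 15.5-fold for the vestibular system. *Rpgr* had signals of 1344, 385, 1477 and 156 with ratios of 3.49-fold and 9.45-fold. *Cep290* had signals of 1337.5, 385, 1904.5 and 205 with ratios of 3.47-fold and 9.30-fold, and 9.69% of its exonic sequence lies in a gene on the other strand. All 3 were highest in vestibular HCs, then cochlear HCs, cochlear ENSCs and vestibular ENSCs. *Nphp4*, a nephronophthisis gene, stayed below 3-fold as deposited and had a corrected vestibular log2 ratio of 2.08. It had signals of 24.5, 20, 41.8 and 22, of which that in cochlear ENSCs was in the tied range and that in cochlear HCs just above it, so it was barely measurable. *Ofd1*, a distal centriole gene, had signals of 780.5, 523, 485 and 220, and of the 52 genes it and *Ift20* were the ones that had both their highest signal in cochlear HCs and a second highest signal in an ENSC library.

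Per kb of exonic sequence the median signal of the 52 genes was 68.1 in cochlear HCs, 34.2 in cochlear ENSCs, 96.1 in vestibular HCs and 26.1 in vestibular ENSCs. Over all genes with an annotated length it was 37.3, 36.4, 36.5 and 36.1. The set therefore lay above the median gene in both HC libraries and below it in both ENSC libraries. By role, the small GTPases had the highest median per kb in the cochlear HCs at 245, and the MKS module, at 27.4, was among the lowest groups of more than 2 genes. The highest single values per kb were those of *Ift20* in cochlear HCs at 1075 and of *Ift74* in vestibular HCs at 804.

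The organs differed in how far HCs and ENSCs stood apart. The HC to ENSC ratio was larger in the vestibular system than in the cochlea for 44 of the 52 genes (84.6%, against 48.5% of all genes). The 8 others were *Ift172*, *Ift20*, *Ift52*, *Ift46*, *Ift140*, *Wdr35*, *Bbs10* and *Tctn2*. Vestibular HCs held the highest of the 4 signals for 36 genes (69.2%, against 21.4%), and vestibular ENSCs the lowest for 36 (69.2%, against 30.3%). Across the 52 genes the log2 ratios of both organs, which share no library, had a Pearson's r of 0.65 and a Spearman's rho of 0.54, against 0.60 and 0.54 over the 12814 genes. This is a description across genes, which are not independent replicates.

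**Figure D2:**
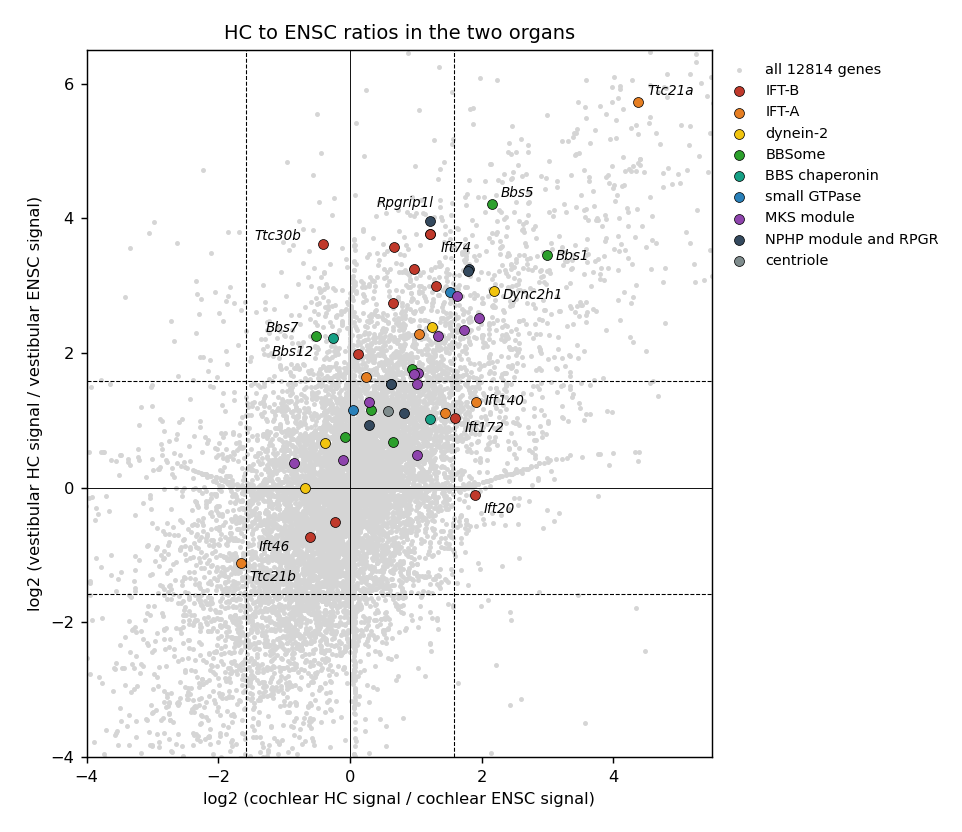
Log2 ratio of HC to ENSC signal in the cochlea (x axis) and in the vestibular system (y axis) for the 52 genes, coloured by role, over all 12814 genes in grey. The axes end before the most extreme of the other genes, dashed lines mark 3-fold, and 40 of the 52 genes lie in the upper right quadrant, with *Ttc21a* at its far corner and *Ttc21b* at the opposite side.

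Between the HC libraries the set was shifted towards the vestibular system by less than 3-fold. Cochlear HCs had less signal than vestibular HCs for 39 genes (75.0%, against 46.5% of all genes), with a median log2 ratio of -0.44. The gene *Ift20* alone passed 3-fold, at 3.16-fold higher in cochlear HCs (1.92%, against 4.21% of all genes), and 0 genes passed 3-fold in the other direction (background 5.09%). The members furthest towards vestibular HCs were *Ttc30b*, at 2.84-fold, *Bbs7*, at 2.48-fold, and *Cc2d2a*, at 2.47-fold.

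Between the ENSC libraries the shift ran the other way. Cochlear ENSCs had more signal than vestibular ENSCs for 37 genes (71.2%, against 48.7% of all genes), with a median log2 ratio of 0.65. At least 3-fold more was found for 7 genes (13.5%, against 7.80%): *Ttc30b* at 5.77-fold, *Ttc30a1* at 4.66-fold, *Rpgrip1l* at 4.55-fold, *Bbs5* at 4.45-fold, *Ift74* at 4.10-fold, *Ttc26* at 3.80-fold and *Ift88* at 3.13-fold. In the opposite direction 0 genes passed (background 7.94%). IFT-B supplied 5 of the 7, and none of the 4 dynein-2 subunits was among them.

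**Figure D3:**
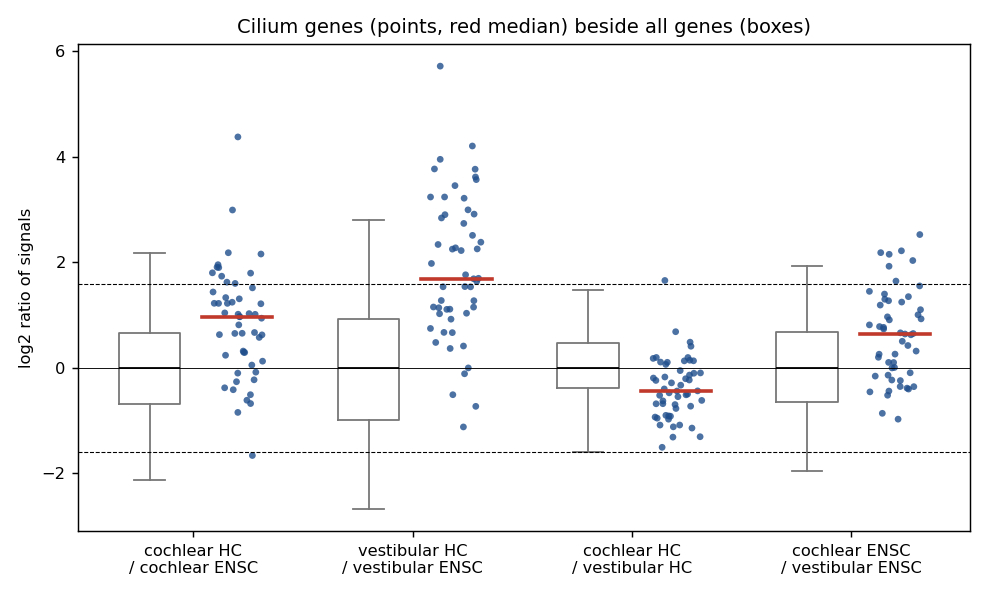
Log2 ratios of signal in the 4 comparisons for the 52 genes (points, with their median as a red bar) beside all 12814 genes (boxes from the lower to the upper quartile with the median, whiskers from the 5th to the 95th percentile). Dashed lines mark 3-fold, and the medians of the 52 genes are 0.97, 1.69, -0.44 and 0.65 from left to right.

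Both comparisons that contain the vestibular ENSC library moved with the base composition of the genes. Over the 10358 to 10850 genes above the floor in both libraries, Spearman's rho between the log2 ratio and exonic GC content was -0.40 for vestibular HCs against ENSCs and -0.45 for cochlear against vestibular ENSCs, but -0.04 for cochlear HCs against ENSCs and 0.02 between the HC libraries. The 52 genes gave -0.42, -0.59, -0.10 and -0.03 for the same comparisons. Their median GC content was 46.5%, below the 48.8% of all genes. With the ratios corrected for their trends on length and GC, the vestibular median of the set was 1.82, with 33 genes past 3-fold towards HCs (63.5%, against 14.7% of 12799 genes) and 1, *Ttc21b* at a log2 ratio of -1.80, lower in HCs, as were 1285 of the 12799 genes. Within bands of GC content, the uncorrected vestibular ratio passed 3-fold for 12 of 17 members against 19.6% of all genes from 40 to 45% GC, 10 of 20 against 14.8% from 45 to 50%, and 5 of 14 against 9.03% from 50% up. The count of genes past 3-fold between the ENSC libraries went from 7 to 3 (5.77%, against 6.99% of genes), which were *Ttc30b*, *Ttc30a1* and *Tmem231*, and the median of the 52 genes from 0.65 to 0.46 on the log2 scale. The vestibular ratio exceeded the cochlear one for 45 genes after correction (86.5%, against 52.6% of genes). In the cochlea the corrected median was 0.95, with 13 of the 52 genes higher (against 8.75% of genes) and 1 lower, as were 1109 of the 12799 genes.

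**Figure D4:**
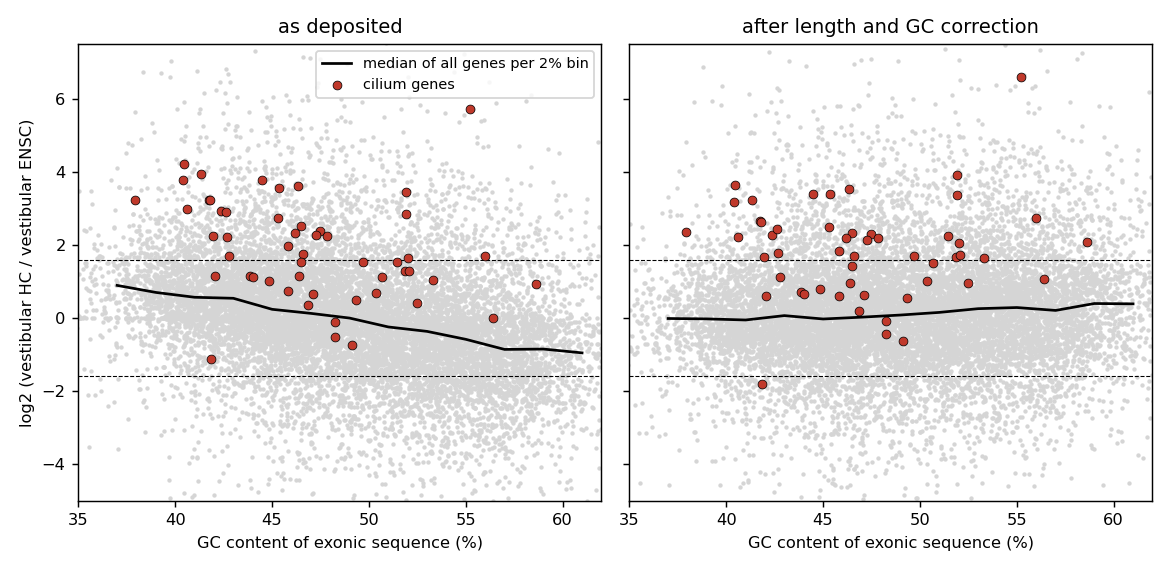
Log2 ratio of vestibular HC to vestibular ENSC signal against the GC content of the exonic sequence (%), as deposited on the left and after correction for length and GC on the right. Red points are the 52 genes, grey points all genes, the black line is the median of all genes in each 2% bin, dashed lines mark 3-fold, and the axes leave out the most extreme of the other genes. The left line falls with GC content, and most red points lie above the line in both panels.

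Markers of other cells also differed between the libraries. In the same order of libraries, the summed signal of the neuronal markers, of which 5 of 10 had a row, was 9369, 5173, 9700 and 421.5. *Isl1*, a transcription factor gene also known in HCs, supplied most of the ENSC sums, with 3682, 4976, 2957 and 339, and the 4 other neuronal markers summed to 5687, 196.75, 6743 and 82.5. Of these, the neurofilament genes *Nefl* and *Nefm* and the synaptic gene *Snap25* were 24.2- to 58.1-fold higher in cochlear HCs than ENSCs and at least 105-fold higher in vestibular HCs, against values at the floor. The remaining one, the receptor gene *Ntrk3*, had signals of 20, 25.8, 61.2 and 22.5, lower in cochlear HCs than ENSCs and 2.72-fold higher in vestibular HCs, with a corrected vestibular log2 ratio of 1.73. The listed neuronal markers without a row were *Nefh*, *Neurod1*, *Prph*, *Th* and *Tubb3*. The study required CD326 on HCs also to keep out neuronal cells with possible minor expression of the fluorescent protein. The sum was 1025, 2811, 604.5 and 3988.5 for glial markers (6 of 8 with a row) and 315, 3591, 217 and 1839 for mesenchymal markers (6 of 8). It was 44.2, 49, 49.8 and 1486.5 for markers of blood and endothelium (2 of 8), of which *Kdr* supplied 1462 in vestibular ENSCs. Glial and mesenchymal markers were thus higher in both ENSC libraries, with 2 of 6 and 4 of 6 in the tied range of each HC library, and the sum of the neuronal markers was lowest in vestibular ENSCs, where 3 of 5 were at the floor. The supporting cell markers (10 of 10) summed to 16168, 98992, 13851 and 23518, and to 15404.5, 36964, 13641 and 22399 without *Epyc*. Their median log2 HC to ENSC ratio was -1.08 for the cochlea and -0.12 for the vestibular system. In the vestibular system *Sox2*, *Lfng*, *Tectb* and *Sparcl1* were 8.50-fold, 2.76-fold, 1.62-fold and 1.02-fold higher in HCs, and 5 markers were lower. The corrected vestibular log2 ratio of *Lfng* was 2.73. In the cochlea *Sox2* and *Lfng* were 1.26-fold and 2.01-fold higher in HCs, and the 8 others were lower. The markers of cycling cells (5 of 8) summed to 156, 216.5, 143 and 817. Cells with many motile cilia use the same transport genes, and their markers (3 of 8) summed to 221.5, 101.5, 5581.5 and 61.5. The dynein gene *Dnahc5* alone had 88, 60.5, 5255 and 21.5, and the others, *Dnaic1* and *Rsph1*, summed to 133.5, 41, 326.5 and 40. In cochlear HCs 1 of these 3 was in the tied range and in vestibular HCs none was, and in the cochlear and vestibular ENSCs 2 of 3 were. The listed markers of such cells without a row were *Ccno*, *Foxn4*, *Gmnc*, *Mcidas* and *Myb*. The part of these differences, and of base composition, in the ratios of the 52 genes was not tested.

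Genes of the same machinery that the symbol rule did not take had smaller median ratios. Of the 47 genes listed as such, which include *Ncs1* in error, 5 passed 3-fold towards HCs in cochlear tissue (10.6%, close to the 8.39% of all genes). In vestibular tissue 16 did (against 13.8% of all genes), and the median log2 ratios were 0.40 and 0.90. *Ncs1* is in neither count. *Ncs1*, a neuronal calcium sensor that was on the list of transition zone genes in error, had signals of 20, 64.2, 66.2 and 44. Its cochlear HC value was at the floor, so that it was at least 2.65-fold higher in cochlear ENSCs, a bound below 3-fold, although it counts as 3-fold lower in HCs by the values as deposited. Past 3-fold in both organs were *Cluap1*, *Dynlrb2*, *Intu* and *Pcm1*. *Cluap1*, the gene for the IFT-B subunit IFT38, had signals of 509, 97.8, 594 and 55, 5.21-fold and 10.8-fold higher in HCs. *Dynlrb2*, a dynein light chain, had signals of 153, 21.2, 217 and 20, at least 6.71-fold and at least 10.8-fold higher. *Intu*, a planar polarity effector needed to start ciliogenesis, had signals of 676.5, 84.8, 495.5 and 53.5, 7.98-fold and 9.26-fold higher. *Pcm1*, the scaffold of centriolar satellites, had signals of 16413, 5182, 12222 and 3867, 3.17-fold and 3.16-fold higher, and corrected log2 ratios of 1.51 and 0.87, both below 3-fold. After correction 4 of the 47 genes passed 3-fold in cochlear HCs (against 8.75% of genes, so no larger a share) and 13 in vestibular HCs (against 14.7%).

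The subgroups outside the symbol rule were uneven, and each of their counts stands beside the 13.8% of all genes past 3-fold in the vestibular system. All 4 further IFT subunits were above 1 in the vestibular system and 3 of them at least 3-fold, with a median log2 ratio of 1.89. The 5 genes for kinesin-2 and cargo adaptors had a vestibular median of 0.73, with 1 past 3-fold, and the 10 genes of the distal appendages and basal body had a median of 0.81, with 2 past 3-fold. Of the 6 further BBS genes, 3 passed 3-fold in the vestibular system and 0 in the cochlea (background 8.39%). The 8 genes listed as further transition zone genes had the lowest vestibular median, 0.39, with 2 past 3-fold and 3 below 1. They include *Ncs1*, listed in error, at a log2 ratio of 0.59, and without it the middle value is that of *Invs*, 0.20. The 6 light chains and partners of dynein-2 had a median of 0.60, with 2 past 3-fold. The 5 genes for release of ciliary lipids and cargo had a median of 0.90, with 2 past 3-fold, and the 3 planar polarity effectors one of 1.27, with 1 past 3-fold.

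RFX factors and FOXJ1 are the known transcriptional regulators of ciliary genes, and 6 of the 9 searched had a row. *Rfx3* had the highest signals, 5240, 2668, 7929.5 and 1863, 1.96-fold and 4.26-fold higher in HCs. *Rfx1* had signals of 75.5, 38.8, 94.8 and 34.8, *Rfx7* of 3456, 1754, 3220 and 1906 and *Rfx5* of 144, 88.8, 56.8 and 67, with no ratio past 3-fold as deposited. *Rfx2* was in the tied range of both cochlear libraries and had signals of 20, 20, 51.5 and 22. *Foxj1*, the master gene of motile cilia, had signals of 104.5, 20.2, 136 and 47.8, at least 4.59-fold higher in HCs in the cochlea and 2.85-fold higher in the vestibular system. *Rfx1*, *Rfx3*, *Rfx7* and *Foxj1* were higher in HCs of both organs, and the cochlear ratios of *Rfx1* and *Rfx7* were 1.95-fold and 1.97-fold. After correction the vestibular log2 ratio of *Rfx3* was 1.29, below 3-fold, and those of *Rfx1*, *Rfx2* and *Foxj1* were 2.74, 2.41 and 2.94, above it.

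RFX factors bind the X-box, an imperfect palindrome of the half-sites GTTNCC and GGNAAC with a gap of 0 to 3 bases. This motif reads the same on both strands, so 1 scan covers both. RefSeq promoter windows on GRCm38.p6, from 250 bases before the start to 50 after it, were given for 44 of the 52 genes. A match with no mismatch in the 10 fixed letters was found for 7 of the 44 (15.9%, against 0.936% of 27025 genes in the promoter table), with at most 1 mismatch for 17 (38.6%, against 6.15%) and with at most 2 for 27 (61.4%, against 37.7%). The 7 genes with an exact match were *Ttc26*, *Ift57*, *Bbs7*, *Ahi1*, *Mks1*, *Tctn1* and *Tctn3*. Among the 9569 genes of the expression table that had a window, the shares were 1.20%, 7.86% and 42.4%. The exact matches are printed because genes of the trains, of the BBSome and of the gate carry the same motif. Lower case letters are promoter bases before the start, 5′ to 3′ on the strand of the gene, and capitals mark the X-box.

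Ttc26 (chr6:38381471-38381523, plus strand): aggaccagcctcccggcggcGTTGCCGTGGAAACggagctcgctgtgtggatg

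Ift57 (chr16:49699214-49699266, plus strand): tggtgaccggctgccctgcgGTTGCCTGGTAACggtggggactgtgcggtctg

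Bbs7 (chr3:36613477-36613530, minus strand): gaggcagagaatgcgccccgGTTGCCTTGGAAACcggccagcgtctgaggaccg

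Mks1 (chr11:87853171-87853214, plus strand): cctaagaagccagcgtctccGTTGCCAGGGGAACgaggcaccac

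Tctn3 (chr19:40612339-40612391, minus strand): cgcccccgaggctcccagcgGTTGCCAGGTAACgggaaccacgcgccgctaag

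In *Ahi1* and *Tctn1* the match lies past the start, and the motif alone is given, as is the match with 1 mismatch past the start of *Bbs1*, the BBSome gene with the largest mean ratio.

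Ahi1: GTTACCTAGGCAAC

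Tctn1: GTTGCCCGGGCAAC

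Bbs1: GTTGCCAAGGCGAC

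Counted from the start with no position 0, these matches ran from -33 to -20 in *Ttc26*, -60 to -48 in *Ift57*, -121 to -108 in *Bbs7*, -24 to -11 in *Mks1* and -140 to -128 in *Tctn3*. They ran from 22 to 35 in *Ahi1*, 37 to 50 in *Tctn1* and 2 to 15 in *Bbs1*. A match is a run of letters and no evidence of binding.

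**Figure D5:**
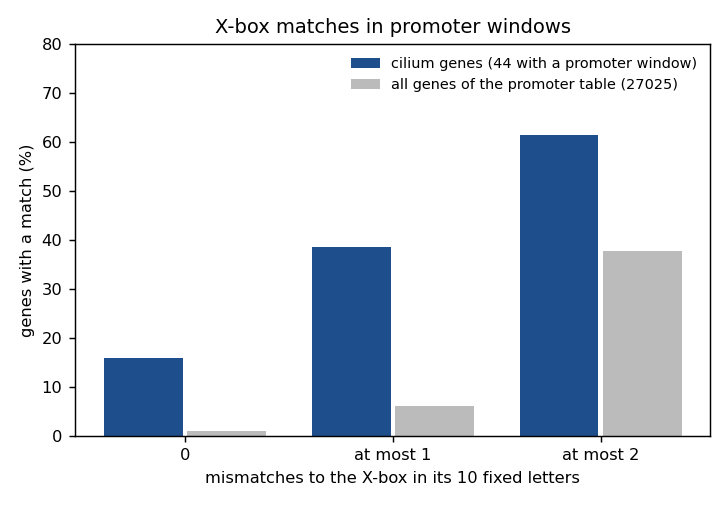
Share of genes (%) whose promoter window holds an X-box with 0, at most 1 or at most 2 mismatches in its 10 fixed letters, for the 44 ciliary genes with a window and for all 27025 genes of the promoter table. The blue bars are 15.9, 38.6 and 61.4% and the grey bars 0.936, 6.15 and 37.7%.

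Within the set, genes with a match had the higher median vestibular ratio at each of 3 limits on mismatches, while the cochlear medians changed order with the limit. At up to 2 mismatches the median log2 ratios were 1.03 (cochlea) and 1.98 (vestibular system) with a match, and 0.67 and 1.15 for the other genes with a window. At up to 1 mismatch they were 1.02 and 1.77 with a match and 1.22 and 1.54 without. With an exact match they were 1.03 and 2.25, against 1.02 and 1.54. When only bases before the start were searched at up to 1 mismatch, the vestibular order turned as well, at 1.54 with a match and 1.77 without. Of the 7 with an exact match, 6 were at least 3-fold higher in vestibular HCs and 1 in cochlear HCs, and of the 37 other genes with a window 17 and 11 were (backgrounds of 13.8% and 8.39% of all genes). The vestibular exception was *Mks1* at 2.42-fold. *Bbs5*, *Dync2h1* and *Rpgr*, 3 of the genes past 3-fold in both organs, had no match with fewer than 3 mismatches in the window. *Ttc21a* had a match with 2 mismatches, while the best match of *Ttc21b* had 3.

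The study's list of 225 putative RFX targets was drawn up from genes with elevated signal in HCs whose promoters carried its RFX motif. For many of these promoters the study also reported binding of RFX1 or RFX3 in a mouse beta cell line. The list held 15 of the 52 genes (28.8%, against 1.76% of all genes). These 15 had median log2 ratios of 1.03 and 2.74, and the 37 others 0.82 and 1.28. At least 3-fold higher signal in vestibular HCs was found for 13 of the 15 and for 15 of the 37 (background 13.8%). The list rests in part on these same libraries, so its direction is not independent evidence. *Wdr34* and *Dync2li1* were the 2 listed genes below 3-fold in the vestibular system, and *Ttc21a*, with the largest ratios of the set, was not listed. *Bbs5*, *Dync2h1* and *Arl6* are listed, although the scan above found no match with fewer than 3 mismatches in their windows. The study searched with a motif found de novo and over a different interval around the start, so the 2 searches can differ for a gene.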

How the data were processed

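RNA from 4 sorted populations was measured, 1 library each. The deposited signal is a read count per ENSEMBL gene that the authors made by aligning the first 50 nt of each read to mm9 with TopHat and counting with HTSeq, followed by quantile normalization and a floor of 20. The authors kept genes with 20 or more reads. Versions and strand setting are not given in the sources used here, nor is the way replicates were combined: the design text names triplicates, and the table has 1 column per population. Groups came from the labels, and columns were matched by title. Quantile normalization removes depth and total RNA from the values.

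From these, log2 ratios with no pseudocount and counts of genes at least 3-fold apart were computed (Python 3.11.15, pandas 2.3.3, statsmodels 0.14.6). With 1 library per group there is no error and no test. Exonic length, GC content and positions came from the GENCODE annotation of NCBIM37 (mm9), which held 12799 of the 12814 genes. Trends on length and then GC were removed by local regression (span 0.3 of the genes, 2 robust iterations). The top of a tied range was the last value before a 10-fold fall in the median of the genes' highest signal elsewhere. The alternatives were a floor, a minimum signal and a pseudocount of 100 each, centring, the length and GC correction, tied values raised to the top of their range, a threshold of 2, and other X-box settings.

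The members, the lists of related genes, regulators and markers of hair cells, supporting cells, neurons, glia, mesenchyme, blood and endothelium, multiciliated and cycling cells, and the naming rule were chosen with earlier results of these data known. The rule named genes at least 3-fold apart in an HC to ENSC comparison or between HC libraries, those with the largest and smallest mean ratio in each role, those at least 2-fold apart in opposite directions, and those in a tied range. Of the 52 members, 2 enter the counts and are not reported by name here. Genes named outside the rule were picked once their values were known. The counts of ratios, the tied ranges, the trend correction and the X-box search were tested on simulated data.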

Additional observations from a re-analysis of the deposited data

Results flagged for a closer look

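For 8 of the 52 genes the HC to ENSC ratio lay above 1 in one organ and below 1 in the other, which 27.0% of all genes did. With 1 library per group this difference between the organs was not tested. Given as the vestibular minus the cochlear log2 ratio, it was 4.03 for *Ttc30b*, 2.76 for *Bbs7*, 2.49 for *Bbs12*, 1.21 for *Cc2d2a*, 1.05 for *Dync2li1*, 0.83 for *Ttc8* and 0.51 for *B9d1*, all of which were higher in HCs only in the vestibular system. For *Ift20* it was -2.01, and this gene was higher in HCs only in the cochlea. With both ratios corrected for length and GC, 9 genes had opposite directions, as did 29.5% of all genes: *B9d1* left this group, its corrected cochlear log2 ratio being 0.07, and *Wdr34* and *Arl13b* joined it, with corrected cochlear log2 ratios of -0.47 and -0.02. The value of *Ttc30b* is uncertain because its transcript shares sequence with its paralogues, and that of *Bbs12* rests on a vestibular ENSC signal at the floor.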

How the results depend on the processing

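Without replicate libraries no error can be given, and depth is unknown. Small signals are limited by the floor and by the tied ranges. No paired analysis was possible because each group has 1 library and the organs are groups of the study, not replicates. A pseudocount of 100 lowered the count of genes at least 3-fold higher in HCs from 12 to 5 in the cochlea and from 28 to 18 in the vestibular system, the vestibular median log2 ratio from 1.69 to 0.94, the count higher in cochlear than vestibular HCs from 1 to 0 (against 0.897% of all genes), that higher in cochlear than vestibular ENSCs from 7 to 2 (2.33%), and that lower in cochlear HCs than ENSCs from 1 to 0 (3.17%). A floor of 100 took the last 2 of these to 3 (3.51%) and 0 (4.41%). Correction for length and GC gave 3 genes between the ENSC libraries and 1 lower in vestibular HCs. A threshold of 2 gave 25 genes higher in cochlear HCs (against 16.5% of all genes), 1 lower in vestibular HCs (24.5%), 7 lower in cochlear than vestibular HCs (10.5%) and 17 higher in cochlear than vestibular ENSCs (17.3%). Promoter matches numbered 17 with at most 1 mismatch and 43 with at most 3 (97.7% of members with a window, close to the 93.9% of all genes), against 27 with 2. The cause of these shifts, beyond the construction of each setting, was not tested. None of the remaining alternatives run for these counts and medians moved a count, or a median as a ratio, by more than 1.5 times. The length and GC correction kept 52 of 52 cochlear ratios and 39 of 52 vestibular ratios within 1.5-fold of their value, moved the other 13 vestibular ones further, and changed the sign of no ratio past 3-fold. Among the members named here, it took *Tmem67* below 3-fold in the vestibular system and *Ift172*, *Ift140*, *Arl3*, *Mks1* and *Nphp4* above it, *Arl6* above it in the cochlea, and *Ttc21b* past 3-fold towards vestibular ENSCs.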
